A study of Drosophila melanogaster with 14 samples.

Results

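The proteasome subunit genes of Drosophila melanogaster were taken by their symbols, as every gene whose name is Prosalpha, Prosbeta, Rpn or Rpt followed by a number, and 48 of the 17558 listed genes met this rule. Of these, 32 were standard subunits and 16 were paralogues, whose names end in T or R after the name of the standard subunit they resemble. The standard subunits fell into 14 genes of the 20S core (7 alpha, 7 beta) and 18 genes of the 19S regulatory particle (6 Rpt, 12 Rpn). The 16 paralogues fell into 11 core genes (5 alpha, 6 beta) and 5 regulatory particle genes (3 Rpt, 2 Rpn).

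The proteasome degrades proteins that carry ubiquitin chains. Its 20S core is a barrel of alpha rings, which gate the entrance, and beta rings, in which Prosbeta1, Prosbeta2 and Prosbeta5 hold the proteolytic sites. The 19S particle sits on the barrel: the Rpt ATPases unfold the substrate, and the Rpn subunits hold the scaffold (Rpn1, Rpn2), the ubiquitin receptors (Rpn10, Rpn13) and the deubiquitinating enzyme (Rpn11). In eukaryotes the standard genes are commonly expressed together, and Drosophila males use a set of paralogous subunits in the testis.

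Polyadenylated RNA was sequenced from whole animals of 3 sets, each with mutants of lola, which encodes BTB zinc finger transcription factors with known roles in axon guidance, and with controls. The lola-F set held 3 mutant libraries (lola-F stop / Df(2R)ED2076) and 3 control libraries (Wild type / Df(2R)ED2076), each from a pool of 100 embryos. The lola-null set held 2 mutant libraries (lola E76 / Df(2R)ED2076) and 2 control libraries (Wild type / Df(2R)ED2076) of embryos. The lola-O set held 2 mutant libraries (lola-O / Df(2R)ED2076) and 2 control libraries (Wild type / Df(2R)ED2076), each from a pool of 10 adults frozen within 10 h of eclosion. Every group, controls included, thus carried the deficiency Df(2R)ED2076 on its other second chromosome. The labels give an age of 15 h after fertilization for the embryos of either set, which were sorted by hand with an mCherry marker. The number of embryos per lola-null pool and the sex of the adults are not in the labels.

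Gene counts per library lay between 3326811, in lola-F control 1, and 22629694, in the third lola-F mutant. Total lola counts, which add up all isoforms, were 60.5% of control in lola-F mutants and 58.2% in lola-null mutants (exact two-sided permutation p = 0.1 and 0.667, where 0.1 and 0.333 are the smallest values these numbers of libraries allow), and 100.4% in lola-O mutants (p = 1). The lola-null value was 28.3% without mutant 1 and 87.3% without mutant 2. Among the lola-null mutants, the library labelled mutant 1 held a lola level inside the control range. Reads with several mapping places made up 65.2% of lola-F control 1, against 3.17% to 4.37% in the other lola-F libraries and 15.8% to 40.4% in the lola-null libraries. The controls of the embryo sets differed in 57.9% of 13238 genes tested. Of the 5 tested late embryo cuticle genes (the Ccp84A cluster), 4 were called lower in lola-null controls than in lola-F controls. The remaining tested cuticle gene went the other way and was called higher in lola-null controls. The lola-null files list 17387 genes and the lola-F and lola-O files 17558. The 171 genes missing in the lola-null files were left out of tests with that set, and all 48 subunit genes are listed there. Between sets, stage, handling, sequencing and the gene list used in counting cannot be told apart. Results that cross sets are comparisons of these libraries. In pools of whole animals, fewer cells of a type and less RNA per cell cannot be told apart.

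Reads were found for 46 of the 48 genes. Prosalpha1, a standard alpha subunit, and its paralogue Prosalpha1R were listed at 0 in all 14 libraries. These genes are neighbours on the minus strand of chromosome arm 2R in the BDGP6.54 annotation, at 7827303 to 7828678 and at 7830413 to 7831771. What part reads with several mapping places have in these zeros was not tested. The results below rest on the other 31 standard subunits and 15 paralogues. Several members overlap an exon of a gene on the other strand, among them 182 bases of Rpt6 with CG1801 and 93 of Rpt4 with wuho, and since no source used here states the strand setting of the counting, reads in those bases may come from either gene.

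The first comparison asked how subunit levels stood in newly eclosed adults and in embryos, over control libraries only. Levels are given as CPM per kb of exon, CPM over all 14 scaled libraries divided by the exonic length in kb, so that genes can be set side by side. All 31 standard subunits were higher in lola-O adult controls than in lola-F embryo controls, where 64% of all 13238 genes tested were called, 39.9% higher and 24% lower (edgeR quasi-likelihood F test, Benjamini-Hochberg adjusted p under 0.05). The median log2 fold change was 2.02 over the 18 regulatory particle genes and 2.06 over the 13 core genes, against 0.23 over all genes tested. No adult control library overlapped a lola-F control library for any of the 31 genes, and the share of all genes without overlap was not counted.

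The genes that rose most were Prosalpha5 (log2 fold change 2.51 ± 0.23 SE, adjusted p = 6.98e-06), Rpn3 (2.44 ± 0.20, 2.9e-06), Rpn9 (2.39 ± 0.18, 1.78e-06) and Rpn2 (2.39 ± 0.21, 4.35e-06). Prosalpha5 stood at 199.9 and 203.8 CPM per kb in adult controls, against 40.1, 45.3 and 32.5 in lola-F controls. Prosbeta5, the chymotrypsin-like proteolytic subunit, rose least. It stood at 107.5 and 104.0 CPM per kb in adult controls, against 57.4, 65.2 and 67.6 in lola-F controls (0.89 ± 0.20, adjusted p = 0.0029). The other proteolytic subunits rose more: Prosbeta1, with the caspase-like site, by 2.06 ± 0.22 and Prosbeta2, with the trypsin-like site, by 1.53 ± 0.19 (adjusted p = 1.81e-05 and 6.06e-05). Prosalpha6 (1.70 ± 0.19) and Rpn12 (1.54 ± 0.27) were also among the 4 smallest rises.

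Within the 19S particle the rises lay between 1.54 (Rpn12) and 2.44 (Rpn3) on the log2 scale. Rpn11, the deubiquitinating enzyme, rose by 2.27 ± 0.24, the ubiquitin receptor Rpn10 by 2.15 ± 0.20 and Rpn6, which clamps the lid to the core, by 2.11 ± 0.24 (adjusted p = 1.68e-05, 7.67e-06 and 2.64e-05). The ATPases Rpt3 and Rpt6 rose by 1.86 ± 0.19 and 2.05 ± 0.20 (adjusted p = 1.21e-05 and 9.29e-06). Libraries differed by a trend with exonic length, and core genes are shorter than particle genes (median 971 bases against 1589). Tested genes of 600 to 1300 bases had a median log2 fold change of 0.87 in this comparison and those of 1400 to 3500 bases 0.21. With that trend removed, the particle median was 1.19 and the core median 0.57, against -0.23 over all genes, 17 of 18 particle genes and 8 of 13 core genes were called higher, and Prosbeta5 had a log2 fold change of -0.28.

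**Figure D1:**
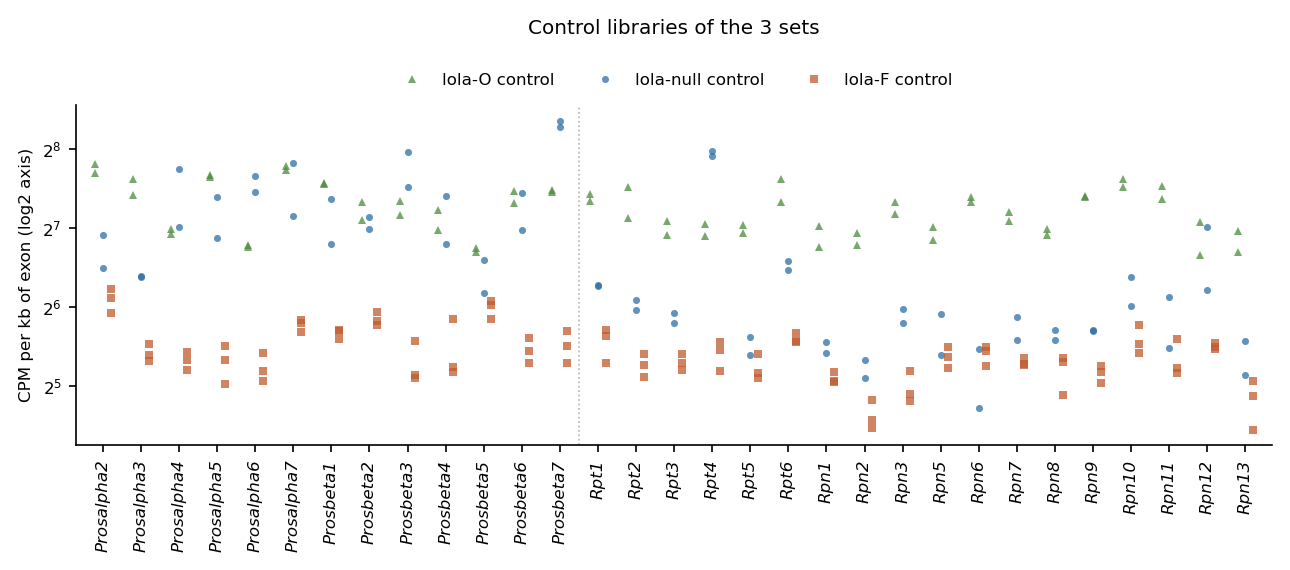
Level of the 31 standard subunits with reads in each control library, in CPM per kb of exon on a log2 axis; triangles are lola-O controls (adults), circles lola-null controls (embryos) and squares lola-F controls (embryos), and the dotted line separates core genes (left) from particle genes (right). Adult controls lie above lola-F controls for every gene, while lola-null controls lie above both adult controls for Prosbeta7, Prosbeta3, Prosalpha4, Prosalpha6 and Rpt4.

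The embryo control sets had the same labelled genotype and age, and they differed most in the core. Of 31 standard subunits, 22 were higher in lola-null controls than in lola-F controls and none was called lower, where 57.9% of all genes tested were called, 30.1% higher and 27.8% lower. The 22 comprised 12 of 13 core genes and 10 of 18 particle genes. The median log2 fold change was 1.72 over the core and 0.52 over the particle, against 0 over all genes tested. The comparisons between control groups share libraries, each group serving in 2 of the 3.

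Prosbeta7, a structural beta subunit on 3R (5357012 to 5358364, minus strand), differed most: 311.3 and 328.3 CPM per kb in lola-null controls, against 39.0, 52.0 and 45.2 in lola-F controls (6.87-fold, log2 fold change 2.78 ± 0.20, adjusted p = 1.42e-06). Rpt4, on the X chromosome (6289470 to 6291245, minus strand), was the particle gene at the level of the core, at 240.5 and 252.4 CPM per kb in lola-null controls, against 36.4, 47.1 and 44.0 in lola-F controls (5.65-fold, adjusted p = 2.72e-06). Prosbeta3 and Prosalpha6 followed at 5.43-fold and 4.93-fold (adjusted p = 9.93e-06 and 4.28e-06). For these 4 genes the sets did not overlap, as for all 13 core genes and 14 of 18 particle genes. The share of all genes without overlap was not counted. At the other end, Rpn6 stood at 26.4 and 44.2 CPM per kb in lola-null controls, against 38.0, 45.0 and 43.4 in lola-F controls, and did not pass (-0.28 ± 0.24, adjusted p = 0.356). Rpt5, Rpn5 and Rpn1 did not pass either (0.25 ± 0.20, 0.28 ± 0.23 and 0.35 ± 0.20).

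The proteolytic subunits differed among themselves here too. Prosbeta1 and Prosbeta2 were 2.67-fold and 2.28-fold higher in lola-null controls than in lola-F controls (adjusted p = 0.000269 and 0.000381). Prosbeta5, at 72.3 and 96.5 CPM per kb in lola-null controls against 57.4, 65.2 and 67.6 in lola-F controls, was the core gene that did not pass (0.38 ± 0.20, adjusted p = 0.138). In this comparison log2 fold changes were nearly unrelated to exonic length across genes (Spearman's rho 0.09, 13026 genes, which are not independent), and with the length trend removed 13 core and 14 particle genes were called higher. The number of particle genes called was the less stable: it was 5 without lola-F control 1 and 5 without either lola-null control, and 6 with RLE scaling, upper quartile scaling or DESeq2, while the core count stayed between 11 and 13 with any 1 control library left out.

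**Figure D2:**
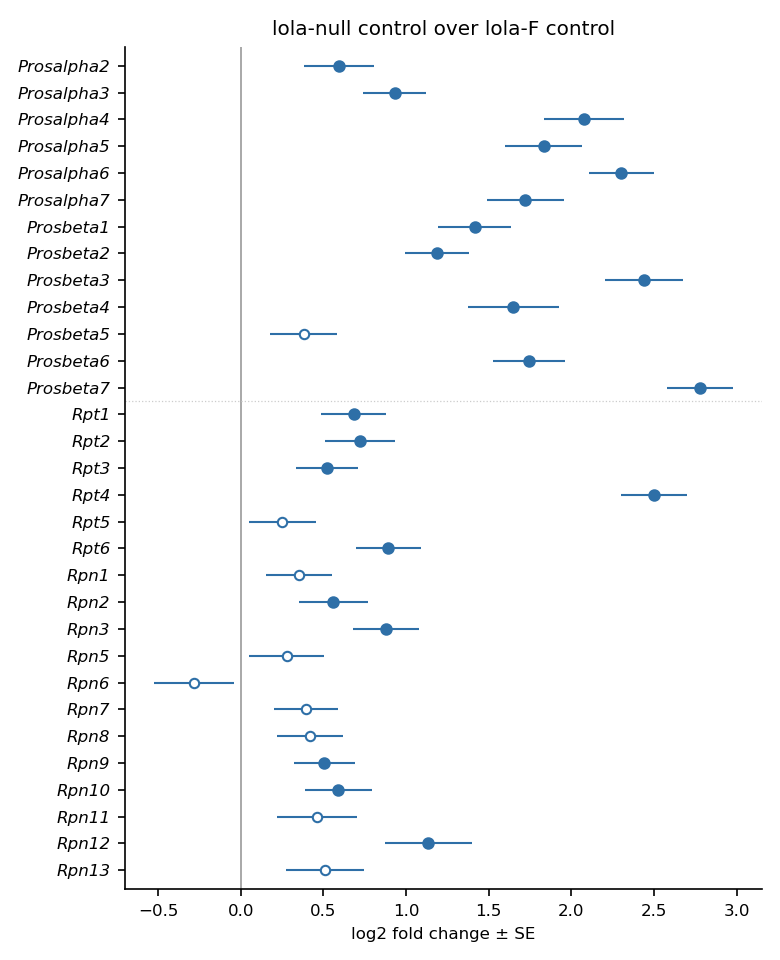
Log2 fold change with its SE for the 31 standard subunits, lola-null control (n = 2) over lola-F control (n = 3) embryos; filled points passed an adjusted p of 0.05, open points did not, and the dotted line separates core genes (above) from particle genes (below). Of 13 core genes, 11 lie between 0.93 and 2.78, and Rpt4 is the particle gene at their level.

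Set against lola-null controls, adult controls were higher for 20 standard subunits and lower for 3, where 76.3% of all genes tested were called, 46.7% higher and 29.6% lower. The particle rose, with 16 of 18 genes called higher and a median log2 fold change of 1.56, while 4 of 13 core genes were called higher and the core median was 0.36, against 0.55 over all genes tested. Rpn6 showed the largest rise (2.39 ± 0.28, adjusted p = 2.43e-05), followed by Rpn9 (1.89 ± 0.21), Rpn2 (1.83 ± 0.24) and Rpn11 (1.81 ± 0.27; adjusted p = 1.87e-05, 5.35e-05 and 0.000151). The 3 genes called lower in adult controls were Rpt4 (-0.78 ± 0.22, adjusted p = 0.00778), Prosbeta7 (-0.66 ± 0.21, 0.0169) and Prosalpha6 (-0.61 ± 0.21, 0.0248), and Prosbeta3 did not pass (-0.31 ± 0.26, 0.283). The core part of this comparison depends on scaling, length and single libraries: 8 core genes were called higher with RLE scaling, 0 with the length trend removed, and 2 without lola-null control 1, without either adult control or with upper quartile scaling, against 7 without lola-null control 2. The number called lower was 14 with the length trend removed, 1 with RLE scaling, 1 without lola-null control 2 and 0 without lola-O control 2.

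How evenly the subunits stood within a group separated the lola-null set from the others. Over the 31 genes, the gene with the highest group mean stood 31.7 times above the lowest in lola-null mutants (Rpt4 over Rpn2) and 9.05 times in lola-null controls (Prosbeta7 over Rpn6). The ratio was 3.81 in lola-F mutants and 2.76 in lola-F controls (both Prosalpha2 over Rpn2), and 2.22 in lola-O mutants and 2.05 in lola-O controls. In the lola-F and lola-O controls all 31 genes were within 2-fold of the group median, against 16 in lola-null mutants and 22 in lola-null controls. Rpt4, whose product shares a ring with the other 5 ATPases, stood at 8.45 times their median in lola-null mutants and 3.79 times in lola-null controls, at 1.202 and 1.08 times in lola-F mutants and controls, and at 0.94 and 0.78 times in lola-O mutants and controls.

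The ratio of the core median to the particle median was taken in each library, over the 13 core and 18 particle genes with reads. It was 1.34, 1.42 and 1.59 in the lola-F mutants, against 1.11, 1.23 and 1.13 in the lola-F controls, so that these groups did not overlap. It was 4.54 and 3.22 in the lola-null mutants, against 2.11 and 3.16 in the lola-null controls, and the lower mutant lay close to the higher control. In adults it was 1.247 and 1.294 in lola-O mutants, against 1.252 and 1.235 in lola-O controls, and the groups overlapped. These ratios are given as a description, since they hold the length trend of each library: core genes are shorter than particle genes.

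**Figure D3:**
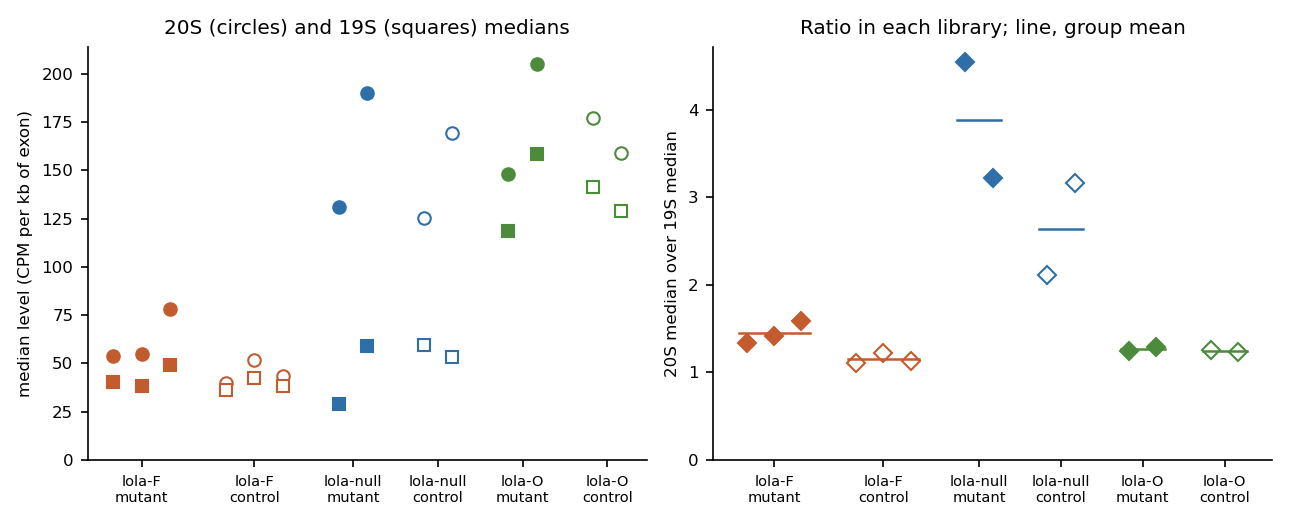
Left, median level of the 13 core genes (circles) and the 18 particle genes (squares) in each of the 14 libraries, in CPM per kb of exon; right, the ratio of the medians, with a line at the group mean; filled symbols are mutants and open symbols controls. The core median stands apart from the particle median in all lola-null libraries, with ratios of 2.11 to 4.54, and lies close to it in adults.

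The study's own question was how loss of lola isoforms changes expression, and each mutant group was compared with the controls of its set. Levels in these comparisons are CPM within the set, not divided by length. In lola-F mutants none of the 31 standard subunits was called higher or lower, where 7.06% of 10191 genes tested were called, 3.33% higher and 3.73% lower; 3 subunits had an unadjusted p under 0.05, and DESeq2 also called 0. The median log2 fold change was 0.29 over the core, where all 13 values were above 0, and -0.004 over the particle, against 0.02 over all genes. Tested genes of 600 to 1300 bases had a median of 0.26 and those of 1400 to 3500 bases 0.09, and with the length trend removed the core median was 0.01 and the particle median -0.19.

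The largest difference in this set was that of Prosbeta7, at 69.4, 67.1 and 105.7 CPM in lola-F mutants, against 50.0, 61.0 and 52.2 CPM in lola-F controls (0.57 ± 0.21, adjusted p = 0.116). Rpn13, a ubiquitin receptor, stood at 58.5, 57.7 and 84.3 CPM in lola-F mutants, against 38.4, 47.2 and 53.1 CPM in lola-F controls (0.53 ± 0.20, adjusted p = 0.129). In both genes all mutant libraries lay above all control libraries, mutant 3 highest. Prosbeta3 and Prosalpha7 came next (0.35 ± 0.23 and 0.35 ± 0.15, adjusted p = 0.332 and 0.157).

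On the low side, the scaffold subunit Rpn2 stood at 71.3, 66.7 and 69.1 CPM in lola-F mutants, against 85.5, 93.0 and 71.5 CPM in lola-F controls (-0.27 ± 0.15, adjusted p = 0.248). Rpn1, the other scaffold subunit, and Rpn6 had log2 fold changes of -0.24 ± 0.16 and -0.21 ± 0.13 (adjusted p = 0.345 and 0.293). For Rpn2 and Rpn6 every mutant library lay below every control library. Among the 18 particle genes these were the 2 that lay below, and 1 lay above, as did 3 of 13 core genes. The share of all genes without overlap was not counted. The proteolytic subunits Prosbeta1, Prosbeta2 and Prosbeta5 differed by 0.23, 0.26 and 0.08, and Rpn10, Rpn11, Rpt3 and Rpt6 by 0.02, 0.17, 0.09 and -0.15, with SE between 0.13 and 0.24, and none passed.

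In lola-null mutants 1 of the 31 standard subunits was called lower and none higher, where 16.9% of 9288 genes tested were called, 9.49% lower and 7.42% higher. The gene called was Rpn2, a scaffold subunit of the regulatory particle. It lies on chromosome arm 3R, 29153524 to 29157255, plus strand (BDGP6.54). Rpn2 stood at 46.4 and 65.0 CPM in lola-null mutants, against 126.6 and 150.1 CPM in lola-null controls, a 2.49-fold fall (-1.32 ± 0.42, adjusted p = 0.0287). At 3412 bases of exon it is the longest subunit gene, and with the length trend removed its log2 fold change was -1.05 (adjusted p = 0.0599). The call was also lost with the replicate block (-1.33, adjusted p = 0.143) and without either control (-1.45 without control 1, -1.19 without control 2). It was kept without either mutant (-1.20 without mutant 1, -1.555 without mutant 2). There the lone mutant library is assumed to vary like the controls, whose spread alone sets the error.

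Other particle genes that were low were Rpn6, at 33.9 and 46.7 CPM in lola-null mutants against 55.7 and 93.9 CPM in lola-null controls (-0.90 ± 0.42, adjusted p = 0.158), and Rpn5, a lid subunit (-0.69 ± 0.42, adjusted p = 0.291). The groups did not overlap for either gene, and neither gene passed. Of 18 particle genes, 5 had both mutant libraries below both controls and 1 had both above, and 4 of 13 core genes had both above. The share of all genes without overlap was not counted. Rpt4 went the other way, at 854.4 and 657.5 CPM in lola-null mutants, against 381.6 and 403.7 CPM in lola-null controls (0.95 ± 0.47, adjusted p = 0.194). So did Prosbeta3, at 415.9 and 401.8 CPM in lola-null mutants, against 181.1 and 250.0 CPM in lola-null controls (0.92 ± 0.47, adjusted p = 0.199).

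The proteolytic subunit Prosbeta5 stood at 143.4 and 213.4 CPM in lola-null mutants, against 89.2 and 119.99 CPM in lola-null controls (0.77 ± 0.44, adjusted p = 0.262). Prosbeta1 and Prosbeta2 differed by 0.36 ± 0.44 and 0.46 ± 0.46, Prosbeta7 by 0.52 ± 0.47 and Prosalpha2 by -0.52 ± 0.45, and none of these passed. Rpn10, Rpn11, Rpt3 and Rpt6 lay between -0.20 and -0.11 on the log2 scale. Over the core 11 of 13 values were above 0 (median 0.34), and over the particle 16 of 18 were below 0 (median -0.19), against a median of 0.09 over all genes. With the length trend removed the core median was -0.18 and the particle median -0.50, and tested genes of 600 to 1300 bases had a median of 0.52, against 0.16 for those of 1400 to 3500 bases.

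The lola-null mutants differed from each other in the particle. Its 18 genes summed to 1844 CPM in the library labelled mutant 1 and to 2566 CPM in mutant 2, against 2141 and 2203 CPM in lola-null controls. Without mutant 2, 8 standard subunits were called lower and 2 higher, and the particle median was -0.75. Without mutant 1, the library at the control level of lola, Rpn2 remained called lower, Prosbeta3 and Prosbeta5 were called higher (adjusted p = 0.0436 and 0.0153), and the particle median was 0.14. The core median was 0.05 without mutant 2 and 0.46 without mutant 1. Each of these fits sets 1 mutant library against 2 controls, and its p-values rest on the spread of the controls alone.

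The difference between the lola-null and the lola-F effects was tested as an interaction. None of the 31 standard subunits passed, where 8.59% of 10848 genes tested did (6.9% higher, 1.69% lower); 3 subunits had an unadjusted p under 0.05, and DESeq2 called 1, Rpn2, lower. The largest values were 0.97 ± 0.41 for Rpt4 (adjusted p = 0.177), 0.92 ± 0.40 for Prosbeta5 (0.191), 0.82 ± 0.39 for Prosbeta3 (0.233) and -0.82 ± 0.31 for Rpn2 (0.13). Prosalpha4 came next among the positive values (0.61 ± 0.39) and Prosalpha2, Rpn13 and Rpn6 among the negative ones (-0.51 ± 0.44, -0.46 ± 0.40 and -0.46 ± 0.34). Without lola-F mutant 2 the values of Rpt4, Prosbeta5 and Prosbeta3 were 0.30, 0.29 and 0.16, and without lola-F mutant 1 they were 0.33, 0.32 and 0.29. The median over all genes in this fit was 0.31, and it turned to -0.20 without a filter or without lola-F control 3, to -0.18 without lola-F mutant 1, to -0.17 without lola-F mutant 2 and to -0.003 with upper quartile scaling. Without a filter, 521 genes were called higher and 521 lower.

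In lola-O adults no standard subunit was called in either direction, where 0.558% of 12906 genes tested were called (0.333% higher, 0.225% lower); none had an unadjusted p under 0.05, and DESeq2 called 0. Values lay between -0.29 (Rpn2) and 0.11 (Rpt4), with SE between 0.19 and 0.27. Rpn2 stood at 267.0 and 314.3 CPM in lola-O mutants, against 395.1 and 318.0 CPM in lola-O controls (adjusted p = 0.6). Rpn5, Rpt5 and Rpn6 were next on the low side (-0.28, -0.25 and -0.23), and Prosbeta5, Prosbeta7 and Prosbeta3 on the high side (0.09, 0.09 and 0.04). The median was -0.01 over the core and -0.12 over the particle, where 17 of 18 values were below 0, against 0.01 over all genes. The sign of the particle median depended on single libraries. It was 0.04 without control 1 and 0.06 without mutant 1, against -0.28 without control 2 and -0.33 without mutant 2.

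**Figure D4:**
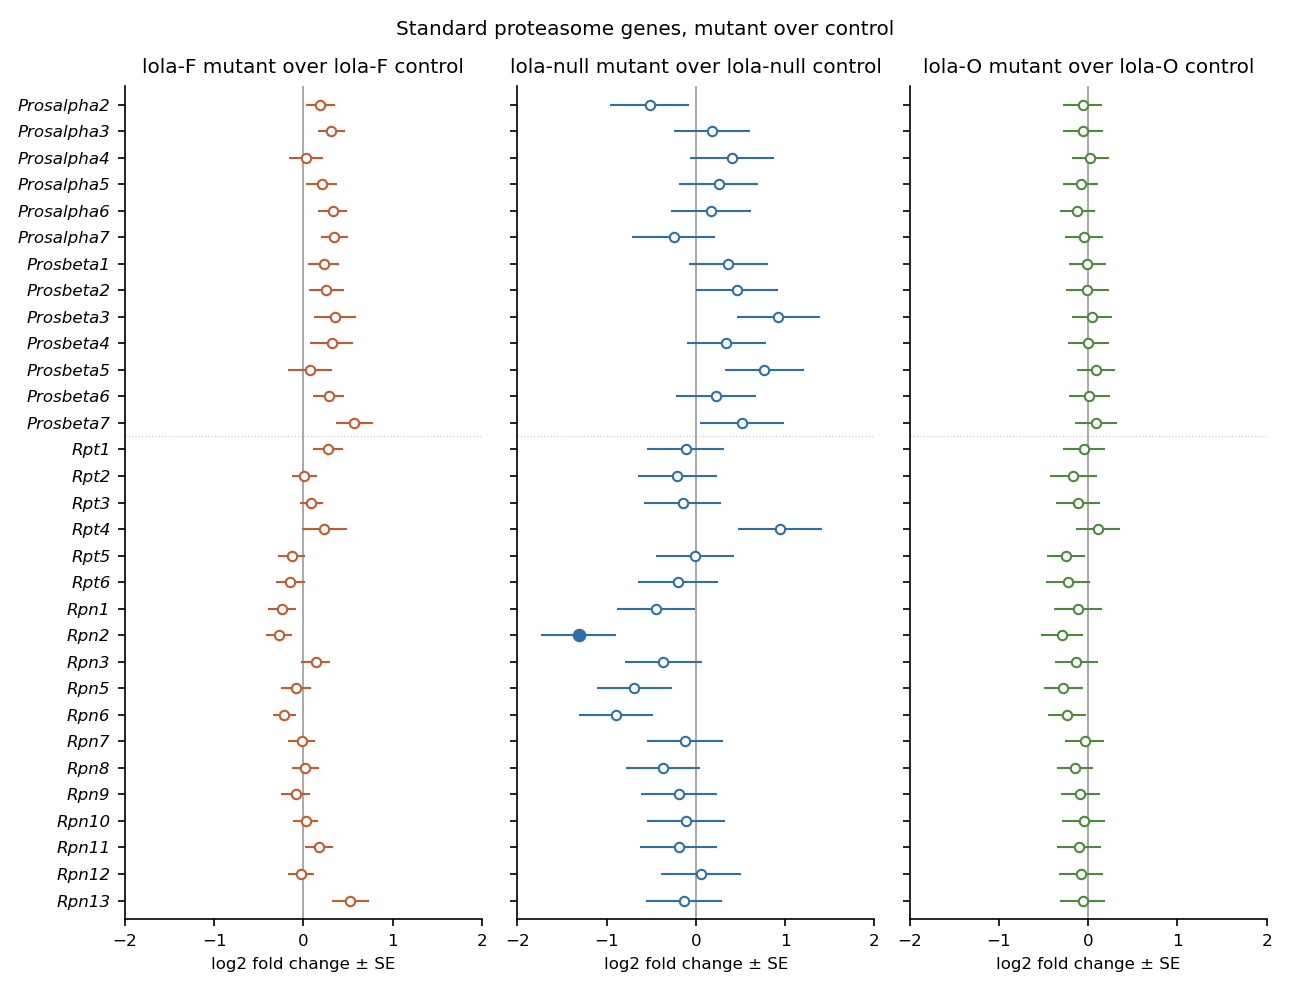
Log2 fold change with its SE for the 31 standard subunits, mutant over control, in the lola-F set (n = 3 per group), the lola-null set (n = 2 per group) and the lola-O set (n = 2 per group); filled points passed an adjusted p of 0.05, open points did not, and the dotted line separates core genes (above) from particle genes (below). Rpn2 in the lola-null set, at -1.32, is the filled point, and error bars are widest in that set.

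The paralogues were a matter of adult libraries. All 15 with reads had at least 53 counts in every adult library, with a highest count of 1060 (Rpt6R, lola-O control 2). In embryos 2 paralogues reached 10 counts in a lola-F control library and 2 in a lola-null control library, and 5 and 7 paralogues had no count in those groups. Because these genes pass the filter on low counts through the adults, their higher adult level is given as values without a count of calls as support. Other male reproductive genes were high in the same libraries as sums. The 19 late male germline genes summed to 7823 and 9183 CPM in lola-O mutants and to 6228 and 8625 CPM in lola-O controls. In embryos they summed to 124.3 to 339.9 CPM in lola-null mutants and 162.0 and 212.2 CPM in lola-null controls. In the lola-F set the sums were 8.56 to 37.3 CPM in mutants and 8.41 to 11.4 CPM in controls. Of these 19, 1 went the other way and was called lower in adult controls than in lola-null controls (log2 fold change -2.17), where 29.6% of all genes tested were. The 7 male accessory gland genes summed to 871.1 to 1137 CPM in lola-O mutants and 1378 to 1571 CPM in lola-O controls, against 0.157 to 0.514 CPM per embryo library. The label of the subunit paralogues as testis paralogues could not be checked against a tissue, since whole flies were sequenced.

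Among the core paralogues, Prosbeta5R1 had the highest level, at 47.2 and 58.2 CPM per kb in lola-O mutants and 40.4 and 60.3 CPM per kb in lola-O controls. Its 1142 counts in the adult controls stood against 1 in the lola-F controls and 0 in the lola-null controls, which makes it 1419-fold higher per scaled library than in lola-F controls (exact 95% counting interval 254.1 to 56078) and at least 250.0-fold higher than in lola-null controls, taking 3 counts over the group as the floor. Prosalpha6T, known in Drosophila as a testis alpha6 subunit, had 825 counts in adult controls, against 1 in lola-F controls (1025-fold, 183.4 to 40525) and 0 in lola-null controls (at least 180.6-fold). Prosbeta4R2, with 940 counts in adult controls and none in either embryo control group, was at least 389.2-fold higher than in lola-F controls and at least 205.8-fold higher than in lola-null controls. These intervals and floors cover counting error only.

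The other core paralogues without a count in lola-F controls were Prosbeta5R2 (at least 158.6-fold higher in adult controls), Prosbeta2R1 (149.9-fold), Prosbeta4R1 (100.6-fold) and Prosalpha4T1 (84.9-fold), each against the floor of 3 counts. Prosalpha4T2 and Prosalpha3T had 3 counts in lola-F controls, giving ratios of 368.1 (interval 125.5 to 1788) and 71.6 (24.1 to 350.7) for adult controls over lola-F controls. Prosbeta2R2 had 5, giving 102.6 (43.6 to 317.7). Prosbeta4R2 shares 69 bases of exon with Or23a on the same strand.

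Among the particle paralogues, Rpt6R had the highest group mean of the paralogues in lola-O controls, at 39.5 and 54.3 CPM per kb in lola-O mutants and 49.5 and 62.4 CPM per kb in lola-O controls, and its adult controls were 92.1-fold above lola-F controls (interval 60.7 to 147.4). Rpn12R was 313.9-fold higher in adult controls than in lola-F controls (107.0 to 1525), Rpn13R 171.4-fold (58.2 to 834.6), Rpt3R 45.7-fold (28.3 to 79.0) and Rpt4R 25.3-fold (15.8 to 43.2). Of 15 paralogues, 2 were called higher in lola-null controls than in lola-F controls, Rpt3R and Rpn13R, where 30.1% of all genes tested were. Rpt3R stood at 4.01 and 4.83 CPM per kb in lola-null controls, against 0.69, 0.58 and 0.31 in lola-F controls (8.72-fold, edgeR adjusted p = 4.91e-05). Rpn13R stood at 2.21 and 0.58 CPM per kb in lola-null controls, against 0, 0 and 0.25 in lola-F controls (10.4-fold). Rpn13R had 12 and 5 counts in lola-null controls and 0, 0 and 3 in lola-F controls. It entered this fit through the adults, so its p-value is not given as support. Without lola-null control 1, 1 of these 2 calls was lost. For Rpt3R the adult controls were 4.84-fold above lola-null controls (3.85 to 6.14), while the ratios or lower bounds of the core paralogues in the same comparison were 37.9 or more.

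**Figure D5:**
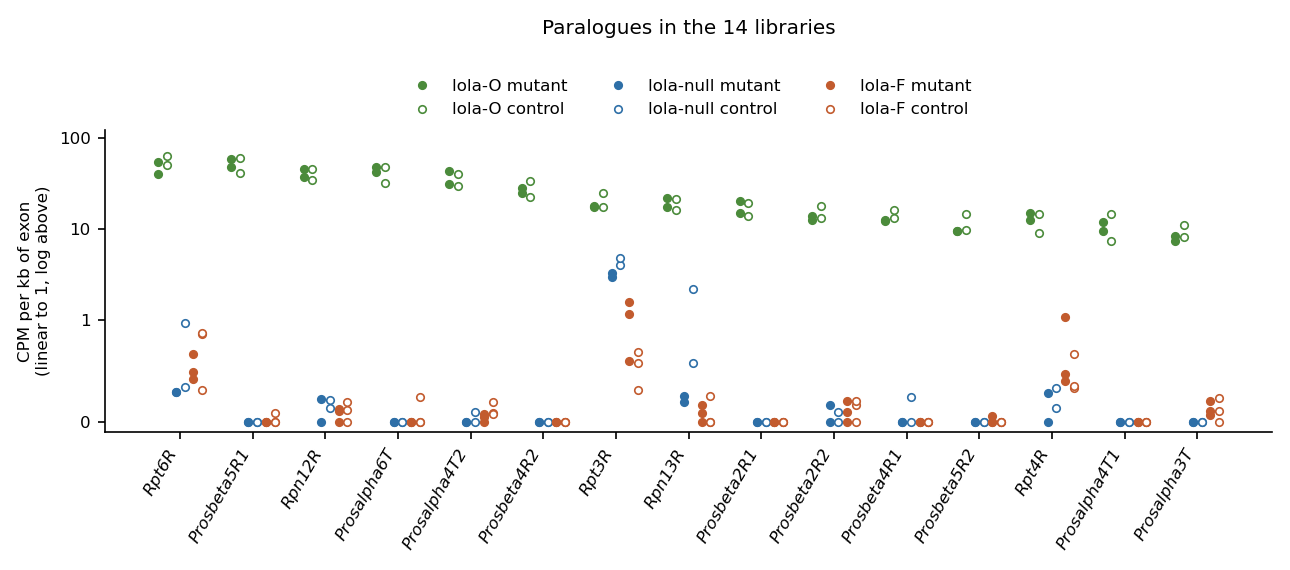
Level of the 15 paralogues with reads in each of the 14 libraries, in CPM per kb of exon on an axis that is linear up to 1 and logarithmic above; filled points are mutants, open points controls, and genes are ordered by their mean in lola-O controls. All lie between 7.4 and 62.4 in adult libraries, and in embryos Rpt3R is the highest, at 2.95 to 4.83 in the lola-null set.

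Even in adults each paralogue stayed below its standard partner. As a share of the pair, per kb, the paralogues took 4.14% (Prosalpha3T) to 31.2% (Prosbeta5R1) in lola-O mutants, with a median of 12.9%, and 5.01% (Prosalpha3T) to 32.0% (Prosbeta5R1) in lola-O controls, with a median of 14.2%. Prosalpha6T took 30.1% of its pair in lola-O mutants and 26.4% in lola-O controls, Rpn12R 26.3% and 25.6%, and Rpt6R 22.6% and 24.0%. The 2 control libraries differed more than the groups did: Prosbeta5R1 took 27.3% and 36.7% of its pair in them. These shares are averages over whole flies.

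None of the 15 paralogues was called between lola-O mutants and lola-O controls, where 0.558% of all genes tested were called (unadjusted p above 0.05 for all 15, and DESeq2 called 0). Log2 fold changes lay between -0.41 (Prosbeta5R2, 12.7 and 12.4 CPM in lola-O mutants against 14.01 and 19.1 CPM in lola-O controls, adjusted p = 0.402) and 0.17 (Rpt4R), with a median of -0.09. In the embryo mutants Rpt3R was the paralogue with enough counts to be tested. It stood at 0.81, 1.55 and 1.99 CPM in lola-F mutants, against 1.05, 0.81 and 0.43 CPM in lola-F controls (1.05 ± 0.50, adjusted p = 0.194), and at 5.57 and 5.14 CPM in lola-null mutants, against 6.31 and 7.65 CPM in lola-null controls (-0.38 ± 0.52, adjusted p = 0.674). Yp3, a yolk protein gene of females, differed between the adult groups (165.1 and 282.6 CPM in lola-O mutants, against 13.4 and 8.44 CPM in lola-O controls, adjusted p = 0.00774). Of the 3 yolk protein genes 2 were tested, and the other one went the other way without being called (log2 fold change -1.34). The part of Yp3 in the paralogue values was not tested.

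Genes that assemble and regulate the proteasome were described from a list of 14. Between lola-null controls and lola-F controls 6 were called higher and 2 lower, where 30.1% and 27.8% of all genes tested were, and the median log2 fold change was 0.15, against 0 over all genes. Pomp, the maturation factor of the core, was higher like the core genes (2.12 ± 0.22, adjusted p = 1.82e-05), and Uch-L5, a deubiquitinase of the 19S particle, was more so, at 205.1 and 255.6 CPM in lola-null controls, against 21.03, 17.8 and 15.9 CPM in lola-F controls (3.497 ± 0.21, adjusted p = 5.84e-07). ntc, an F-box protein that acts with the proteasome regulator PI31 in spermatids, was also higher (2.06 ± 0.27, 8.51e-05). The 2 genes called lower were cnc, the fly relative of the vertebrate NRF factors (-2.10 ± 0.32, 0.000228), and maf-S, its dimer partner (-1.17 ± 0.28, 0.00415).

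Between lola-O adult controls and lola-F controls 9 of the 14 were called higher, where 39.9% of all genes tested were, and 2 lower, where 24% were (REG, an activator cap of the core, and maf-S), with a median of 1.44. ntc rose (4.73 ± 0.27, adjusted p = 2.67e-07), at 74.2 and 99.8 CPM in adult controls, against 2.89, 4.28 and 4.39 CPM in lola-F controls. Usp14, another deubiquitinase of the particle, rose by 2.24 ± 0.18, Pomp by 1.97 ± 0.22 and PI31 by 1.89 ± 0.18 (adjusted p = 2.07e-06, 2.71e-05 and 8.76e-06). Uch-L5R, a paralogue of Uch-L5, had 16.9 and 25.1 CPM in adult controls and was listed at 0 in all embryo controls. It passes the filter on low counts through the adults, so its part in the counts of higher genes in this paragraph is no support. Against lola-null controls, adult controls were higher for 8 of the 14 and lower for 2, where 46.7% and 29.6% of all genes tested were called higher and lower.

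Keap1, which binds the Cnc protein, was the 1 of 13 tested that passed in lola-F mutants, at 16.2, 15.7 and 12.2 CPM in lola-F mutants, against 29.4, 25.9 and 36.4 CPM in lola-F controls (-1.06 ± 0.19, adjusted p = 0.0303), where 7.06% of all genes tested were called. Every call in lola-F mutants, of this gene and of those below, is lost with the replicate block and without control 1, control 2, mutant 1 or mutant 2, each of which leaves 0 genes called. cnc was the 1 of 13 that passed in lola-null mutants, at 14.4 and 18.5 CPM in lola-null mutants, against 68.9 and 92.9 CPM in lola-null controls (-2.30 ± 0.43, adjusted p = 2e-04), where 16.9% of all genes tested were called. cnc was also low in the other mutant groups, without passing (-0.76 ± 0.24, adjusted p = 0.0856 in lola-F mutants; -0.84 ± 0.28, 0.203 in lola-O mutants). None of the 14 passed in lola-O mutants, where 0.558% of all genes tested were called; 2 had an unadjusted p under 0.05 in edgeR, and DESeq2 called 0. The median over the list was -0.04 in lola-F, 0.10 in lola-null and -0.10 in lola-O mutants.

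Of 19 genes of ubiquitin supply and shuttling, 1 rose and 1 fell in lola-F mutants, where 7.06% of all genes tested were called: RpS27A, a ribosomal protein fused to ubiquitin (0.69 ± 0.15, adjusted p = 0.0428), and the shuttle factor Ubqn (-0.51 ± 0.12, 0.0463). In lola-null mutants 2 fell, where 9.49% of all genes tested were called lower, among them the E2 enzyme gene eff (-1.43 ± 0.47, adjusted p = 0.0323). Medians were -0.06, 0.05 and -0.10 in lola-F, lola-null and lola-O mutants. Between adult controls and lola-F controls 12 were higher and 2 lower, where 39.9% and 24% of all genes tested were. Higher genes included the polyubiquitin gene Ubi-p63E (2.66 ± 0.19, adjusted p = 1.22e-06) and Npl4, a cofactor of the p97 segregase (3.43 ± 0.21, 3.34e-07). Against lola-null controls, adult controls were higher for 7 of the 19 and lower for 6, where 46.7% and 29.6% of all genes tested were. The list median in that comparison was -0.18, against 0.55 over all genes.

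Stress chaperones gave 11 tested genes in each mutant comparison. In lola-F mutants, with the same losses as above, Hsp68 rose (0.99 ± 0.21, adjusted p = 0.0417) and Hsc70-3, the chaperone of the endoplasmic reticulum, fell (-1.16 ± 0.14, 0.0153). In lola-null mutants Hsc70-3 fell to 282.3 and 285.0 CPM, against 684.4 and 749.3 CPM in lola-null controls (-1.34 ± 0.47, adjusted p = 0.0499), and the small heat shock genes Hsp27 and Hsp26 fell by 3.38 and 1.87 on the log2 scale (adjusted p = 2.51e-06 and 0.0164). The shares over all genes tested were 7.06% in lola-F and 16.9% in lola-null mutants. None passed in lola-O mutants, where the share was 0.558%; 5 had an unadjusted p under 0.05 in edgeR, and DESeq2 called 0. The list medians were -0.03, -0.49 and -0.17 in lola-F, lola-null and lola-O mutants.

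Markers of other cell types moved with the same groups. The 5 neuron markers summed to 336.6 to 523.6 CPM in lola-F mutants and 672.1 to 1273 CPM in lola-F controls (2 of 5 lower, with the same losses as above, where 3.73% of all genes tested were lower). They summed to 98.3 to 103.7 CPM in lola-null mutants and 402.1 to 510.0 CPM in lola-null controls (5 of 5 lower, where 9.49% of all genes tested were). In both embryo mutant comparisons log2 fold changes fell with exonic length across genes, which are not independent. Spearman's rho was -0.50 in lola-F mutants and -0.49 in lola-null mutants. The part of length in the values of the neuron markers, and of cnc above, was not tested. The 7 late embryo cuticle genes summed to 69.1 to 101.3 CPM in lola-F mutants and 42.6 to 53.0 CPM in lola-F controls, and to 183.5 to 190.5 CPM in lola-null mutants and 6.97 to 8.92 CPM in lola-null controls, where 4 or 5 of the 7 were at 0. The early germline gene bam stood at 75.9 and 47.2 CPM in lola-null mutants and 29.6 and 53.2 CPM in lola-null controls, against 0.52 to 4.71 CPM in the lola-F libraries. Both early germline genes, bam and bgcn, together gave 20.996 to 28.3 CPM in adult libraries. They went opposite ways between adult and lola-null controls. In adult controls bam was called lower (log2 fold change -4.49) and bgcn higher (3.71), where 29.6% and 46.7% of all genes tested were. The 9 eye markers summed to 1853 to 2325 CPM per adult library and to 11.8 to 130.1 CPM per embryo library, and the 3 flight muscle markers to 8061 to 14530 CPM and to 1.52 to 6.52 CPM. The part of these shifts in the subunit values was not tested.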

How the data were processed

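RNA libraries were directional (NEBNext Ultra), per the labels' protocols. Per the submitters' processing notes, the tools named are STAR (2.5.0c) and HTSeq (0.6.1p1), with the genome build BDGP6. No source used here states the annotation release or the strand setting. The deposited files hold whole-number gene counts without normalization, plus summary rows for reads assigned to no gene or to several (6.32% to 66.7% of a library), which were left out. Symbols, positions and exonic lengths came from BDGP6.54, which matched 17252 of 17558 identifiers; lola was read under FBgn0005630, a former identifier, from general knowledge. Of the listed names, nos, vas, Mst35Ba, Mst35Bb, Acp70A, starv, TER94 and Ufd1-like were not matched.

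Counts were tested in R 4.3.3 with edgeR 4.0.16 (filterByExpr, TMM, quasi-likelihood F test, Benjamini-Hochberg over all genes at 0.05), each set on its own, both embryo sets together for the interaction, and the 7 control libraries together for comparisons between sets; SE is the log2 fold change over the square root of F. The test was also run on simulated data, and the outcome is not given here. Alternatives were DESeq2 1.42.0, other scalings, no filter, removal of each library's length trend (lowess span 0.3), a replicate block and leaving out each library. Replicate libraries differed beyond counting error (chi-square over its degrees of freedom, 3.08 to 85.4), and nothing says that they came from separate crosses, so p-values measure the spread between these samples. Deviations of same-numbered libraries from their group means had correlations of -0.15 to -0.04 in the lola-F set, -0.25 in lola-null and 0.09 in lola-O. With 2 libraries per group, all correlations of a set are the same number with either sign, so they cannot show whether numbers mark pairs. Numbers were not used as pairs.

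The text names 8 fixed subunits (Prosbeta1, Prosbeta2, Prosbeta5, Rpn6, Rpn10, Rpn11, Rpt3, Rpt6), the 4 with the largest change in each direction per comparison, every paralogue with 10 or more counts in a library, and list genes with the smallest p. The 11 lists cover assembly and regulation, ubiquitin supply, stress chaperones, and markers of late male germline, early germline, accessory gland, yolk, eye, flight muscle, neurons and late cuticle. Members and lists were chosen with earlier results of these data known. Of the pathway lists, 1 gene is counted but its values are not reported here.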

Additional observations from a re-analysis of the deposited data

Results flagged for a closer look

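Among the subunits and the pathway genes reported here, 2 genes differed between the lola-null and lola-F sets in the test of the difference itself (interaction, edgeR with Benjamini-Hochberg adjustment). Tested were 31 standard subunits, 2 paralogues, 13 genes of assembly and regulation, 19 of ubiquitin supply and 11 stress chaperones. Of all 10848 genes tested, 8.59% passed, so 2 genes are no excess over all genes. Hsp27 had a difference of -2.95 ± 0.49 on the log2 scale (adjusted p = 0.00621): it stood at 8.19 and 11.6 CPM in lola-null mutants against 124.0 and 81.3 CPM in lola-null controls, and at 5.12, 5.05 and 7.85 CPM in lola-F mutants against 9.47, 7.33 and 4.65 CPM in lola-F controls. Keap1 had a difference of 2.02 ± 0.48 (adjusted p = 0.0301), with 71.6 and 37.5 CPM in lola-null mutants against 26.5 and 40.6 CPM in lola-null controls, where the groups overlapped, beside its fall in lola-F mutants. No group held 4 or more libraries, so single libraries were not screened against their group.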

How the results depend on the processing

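With upper quartile scaling the all-gene median moved by over 0.1 on the log2 scale (lola-F mutants to 0.17 from 0.02; adult over lola-F controls to -0.06 from 0.23); relative to all genes the core median in lola-F mutants was 0.26 under both scalings. Rpn2, the standard subunit called lower in lola-null mutants, was lost with the replicate block (0 called lower, also with the length trend removed in addition) and kept when the numbers were crossed (1, an alternative chosen after seeing the data); leaving out 1 library gave 0 to 2 called higher and 0 to 8 called lower. Equal numbers are not known to mark paired libraries. Over all genes the block gave 0 higher and 0 lower in lola-F mutants (339 and 380 without it) and 271 and 398 in lola-O mutants (43 and 29 without it), and 388 and 47 in the interaction (749 and 183 without it). With the block alone no other count of subunits moved by over 1.5 times, while other alternatives moved counts further, as given here and above. In the interaction, DESeq2 and the fit without a filter each called 1 standard subunit lower, and leaving out 1 library gave 0 to 1. For adult over lola-null controls, 1 was lower with RLE scaling and 14 with the length trend removed, with or without the block, and 0 to 3 without 1 library. For lola-null over lola-F controls, 0 to 1 were lower without 1 library. With the length trend removed, Prosbeta5 reversed in adult over lola-F controls (-0.28, or -0.20 with the block) and Prosbeta1 in adult over lola-null controls (-1.32, or -1.30 with the block). The lola level was 52.1% to 67.9% of control in lola-F, 28.3% to 87.3% in lola-null and 88.9% to 112.8% in lola-O mutants without 1 library. The cause of these shifts was not tested. The shallowest library, lola-F control 1, holds 3326811 counts, which limits the paralogues in embryos.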
